A study of Mus musculus with 6 samples.

Results

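The 10 genes described here are the MHC class II genes and their transactivator in lymph node cells of mice with or without melanoma. They were taken by symbol from the feature lists of all 6 libraries: H2-Aa, H2-Ab1 and H2-Eb1, H2-DMa, H2-DMb1 and H2-DMb2, H2-Oa and H2-Ob, Cd74, and Ciita. All 10 were present in each library, among 32285 genes in the 3 libraries of the enriched fraction and 54752 genes in the 3 libraries of the depleted fraction.

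MHC class II molecules are pairs of an alpha and a beta chain that carry peptides from endosomes to the cell surface, where CD4+ T cells read them. H2-Aa and H2-Ab1 encode the chains of I-A, and H2-Eb1 encodes the beta chain of I-E, whose alpha chain gene is inactive in the C57BL/6 strain. Cd74 encodes the invariant chain, which fills the groove and guides new class II molecules to endosomes. H2-DM, made of the H2-DMa chain with a chain from H2-DMb1 or H2-DMb2, exchanges the remnant of the invariant chain for peptide, and H2-DO, made of the H2-Oa and H2-Ob chains, inhibits H2-DM. Ciita encodes the transactivator that is recruited to a shared promoter module of all these genes. Dendritic cells, B cells and macrophages carry class II in the lymph node; dendritic cells that reach the node from tissue after maturation are known to lower transcription of Ciita.

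The cells came from lymph nodes, inguinal and axillary, of C57Bl/6 mice bearing YUMMER1.7 melanoma, of mice bearing YUMM1.7 melanoma, or of naive mice without a tumour. YUMM1.7 is a transplantable mouse melanoma line, and YUMMER1.7 was derived from it by ultraviolet irradiation and carries more mutations. Nodes of several mice were pooled for each library; the sources used here give no age, sex or number of mice. Each arm has 1 enriched library, selected with CD11b and CD11c beads after collagenase digestion, and 1 depleted library. The labels describe the depleted cells as depleted of CD45+ cells, while their protocol speaks of enriching stromal cells with CD45 beads; most of the named cells in all 3 depleted libraries had markers of B, T or plasma cells. With 1 library per arm and fraction, no spread between replicates can be had and no difference was tested. All intervals are exact 95% intervals for counting error in the libraries compared, not for differences between mice. Levels are summed unique molecular identifiers (UMIs) of a cell class as counts per 1000000 UMIs of that class (CPM), and a gene was said to be higher or lower between arms when its ratio passed 1.5-fold with at least 50 UMIs over both libraries and at least 50 cells in each.

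Total UMIs per library were 67709285 to 86471908, and 6482 to 12381 cells per library were kept, with median UMIs per cell of 6726 to 10170.5 in the enriched fraction and 4152 to 4888.5 in the depleted one. The naive library was the shallowest per cell in both fractions. Between 6 and 49 barcodes were shared by any 2 libraries, at most 0.431% of the smaller library. Classes were named from fixed markers with the 10 genes left out of the clustering, and every class used here had its own markers detected; no conventional DC class was named in the depleted fraction and no plasmacytoid DC class in the enriched fraction. No correction was made for free RNA.

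Except for Cd74 and Ciita, all of the genes lie within 224 kb of chromosome 17 (GRCm38, GENCODE vM21), in the order H2-Oa (34092340-34095234), H2-DMa (34119541-34139101), H2-DMb2 (34143307-34151555), H2-DMb1 (34153072-34160230), H2-Ob (34238903-34254414), H2-Ab1 (34257689-34269419), H2-Aa (34282744-34287823) and H2-Eb1 (34305867-34316674). H2-Aa is on the minus strand and the others on the plus strand. Ciita is at chr16:10480059-10528418 on the plus strand. H2-DMa overlaps Brd2, H2-Oa overlaps BC051537, H2-Eb1 overlaps Gm20513 and Ciita overlaps Dexi, each on the opposite strand, and the strand setting of the counting is not given in the sources used here. Of the 50-base words in the last 500 bases of H2-DMb1, 20.4% occur in H2-DMb2, so reads from the end of H2-DMb1 can match both, while 0% of the words in the end of H2-DMb2 occur in H2-DMb1. The other pairs of members compared shared 0% of these words.

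The shared promoter module holds an X box, bound by RFX and CREB proteins, and a Y box with the core CCAAT of NF-Y, on which Ciita assembles. Promoter sequences of RefSeq (GRCm38.p6) were held for 7 of the 10 genes, and 6 of these carried AAC, followed after 20 to 30 bases by TGATTGG, within the 250 bases before the start. In 32851 promoters of the table read on both strands, TGATTGG was found in 7.23% and the spaced pair in 0.910%. H2-DMa, with 2 starts in the table, held no such pair in these windows. Windows of 67 bases from 4 genes are shown as examples of the spaced pair in genes of presenting, loading and inhibiting chains; the capitals mark the AAC of the X box region and TGATTGG, the Y box read on the strand of the gene:
H2-Aa (chr17:34287852-34287918, minus strand): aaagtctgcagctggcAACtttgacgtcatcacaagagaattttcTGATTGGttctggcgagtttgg
H2-Eb1 (chr17:34305761-34305827, plus strand): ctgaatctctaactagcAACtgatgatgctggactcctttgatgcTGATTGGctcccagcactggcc
H2-DMb2 (chr17:34145112-34145178, plus strand): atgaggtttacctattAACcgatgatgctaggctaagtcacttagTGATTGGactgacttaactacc
H2-Ob (chr17:34238801-34238867, plus strand): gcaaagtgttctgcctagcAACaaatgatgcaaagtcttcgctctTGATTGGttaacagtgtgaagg
In these windows TGATTGG lies 50 to 92 bases before the start, and the gap between the capitals is 26 bases in H2-Aa and H2-DMb2, 25 in H2-Eb1 and 23 in H2-Ob. The match is a description of letters, with no measurement of binding in these data.

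The chains that present peptide were highest in conventional DCs of the enriched fraction. H2-Aa, the I-A alpha chain, was at 7842, 7865 and 8321 CPM in cDC2 in the YUMMER1.7, YUMM1.7 and naive libraries, and at 7547, 7175 and 7017 CPM in cDC1. Macrophages had 5016, 4169.7 and 4457 CPM and monocytes 4169, 4719 and 4142 CPM in the YUMMER1.7, YUMM1.7 and naive libraries. B cells had 3492, 3114 and 3013 CPM and migratory DCs 1745, 1592 and 1639 CPM in the same order of libraries. The ranges of cDC2 and cDC1 did not overlap, those of macrophages and monocytes did, and B cells lay below both and above migratory DCs in all 3 libraries. NK cells (219, 154 and 224 CPM), neutrophils (179, 295 and 239 CPM) and T cells (137, 129 and 138 CPM), which mouse biology places outside the class II lineages, lay at the bottom, with overlapping ranges of NK cells and neutrophils and T cells below them.

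H2-Ab1, the I-A beta chain, and H2-Eb1 gave a like order. H2-Ab1 was at 6837, 6304 and 5867 CPM in cDC1 and 5707, 5742 and 5873 CPM in cDC2 in the YUMMER1.7, YUMM1.7 and naive libraries, ranges that overlap, against 614, 578 and 550.1 CPM in migratory DCs. H2-Eb1 was at 8089, 7529.9 and 7220.3 CPM in cDC1 and 7489, 7382 and 8064 CPM in cDC2, against 1637, 1511 and 1623 CPM in migratory DCs. UMIs at the 3′ end are not scaled by length and differ in capture between genes, so 2 genes are compared only by how their ratio differs between classes. The ratio of H2-Ab1 to H2-Aa UMIs was 0.906, 0.879 and 0.836 in cDC1, 0.728, 0.730 and 0.706 in cDC2 and 0.691, 0.699 and 0.664 in B cells in the YUMMER1.7, YUMM1.7 and naive libraries, against 0.352, 0.363 and 0.336 in migratory DCs. H2-Ab1 was thus scarcer relative to H2-Aa in migratory DCs than in every other antigen-presenting class of this fraction. Migratory DCs of the depleted fraction gave 0.268, 0.319 and 0.321, also below the ratios of 0.739, 0.659 and 0.647 in B cells of that fraction.

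Cd74, the invariant chain, was at 13826, 12368 and 11813 CPM in cDC1 and 12392, 12252 and 13318 CPM in cDC2 in the YUMMER1.7, YUMM1.7 and naive libraries. B cells (7831, 7231 and 6728 CPM), monocytes (6829, 7319 and 6599.5 CPM) and macrophages (7245, 6016 and 6233 CPM) had overlapping ranges below them. Migratory DCs had 2978, 3031 and 3162 CPM, and T cells 213, 169 and 211 CPM. Relative to H2-Aa, B cells had more Cd74 than cDC2 or macrophages: the ratio was 2.24, 2.32 and 2.23 in B cells in the YUMMER1.7, YUMM1.7 and naive libraries, against 1.58, 1.56 and 1.60 in cDC2 and 1.44, 1.44 and 1.40 in macrophages. In plasma cells of the depleted fraction it was 5.58, 5.01 and 6.74.

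**Figure D1:**
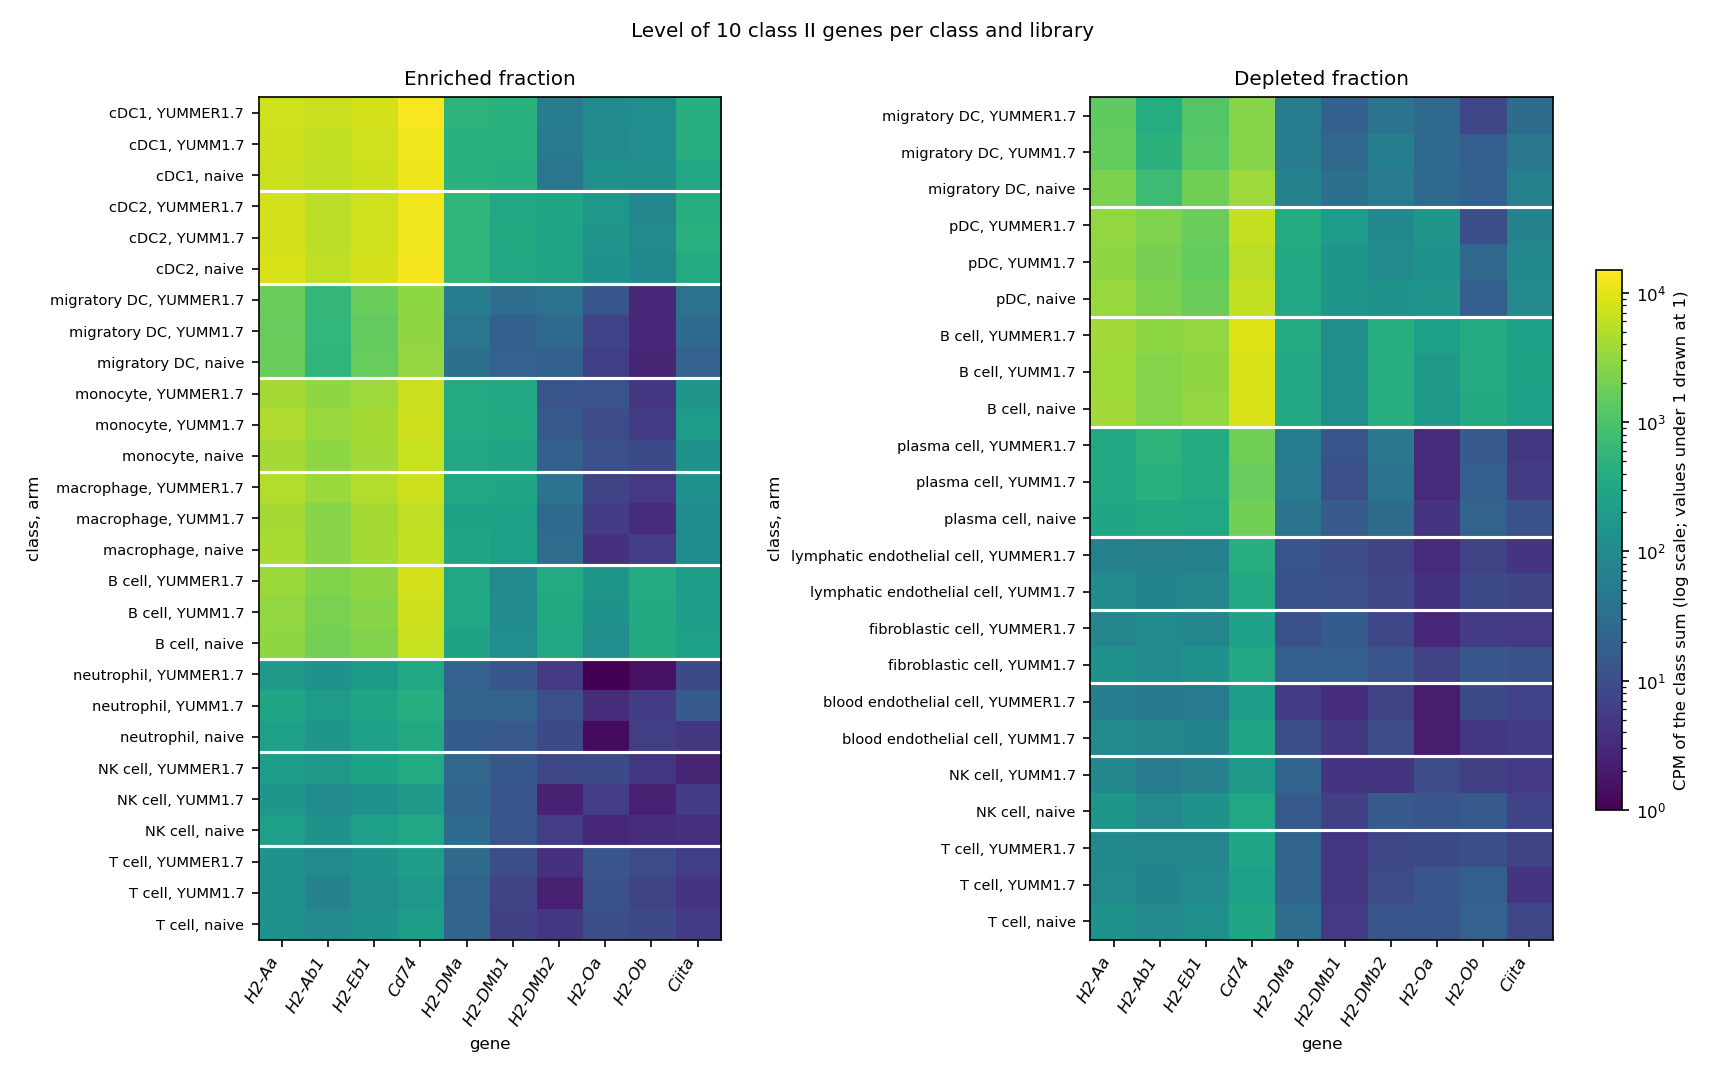
Heat map of the level of each of the 10 genes (columns) by cell class and library (rows, with YUMMER1.7, YUMM1.7 and naive from top to bottom within a class), in CPM of the class sum on a log colour scale. The enriched fraction is on the left and the depleted fraction on the right. Class and library units of under 50 cells are not drawn, nor are mast cells or basophils of the depleted fraction. The rows of a class look alike while classes differ: cDC1 and cDC2 are brightest for H2-Aa, H2-Ab1, H2-Eb1 and Cd74, H2-DMb2 and H2-Ob are bright in B cells, and migratory DCs are dim for all but the presenting chains and Cd74.

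The H2-DM genes, which load peptide, differed between classes in the ratio of their 2 beta chains. H2-DMa, the alpha chain, was at 551, 540.0 and 566 CPM in cDC2, 497, 473 and 473 CPM in cDC1, 352, 357 and 319 CPM in monocytes, 333, 266 and 292 CPM in macrophages and 319, 307 and 251 CPM in B cells in the YUMMER1.7, YUMM1.7 and naive libraries. Migratory DCs had 55.9, 43.9 and 34.2 CPM. H2-DMb1 was at 456, 451 and 409 CPM in cDC1 and 319, 349 and 299 CPM in monocytes, against 101, 105 and 112 CPM in B cells. H2-DMb2 ran the other way, with 357, 349.5 and 303 CPM in B cells and 285, 273 and 272 CPM in cDC2, against 57.8, 51.1 and 43.9 CPM in cDC1 and 12.6, 15.03 and 19.3 CPM in monocytes.

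The ratio of H2-DMb1 to H2-DMb2 UMIs therefore spanned a wide range. It was 25.3 (95% interval 22.4 to 28.7), 23.2 (95% interval 20.5 to 26.4) and 15.5 (95% interval 12.96 to 18.6) in monocytes in the YUMMER1.7, YUMM1.7 and naive libraries. It was 7.90, 8.83 and 9.32 in cDC1 and 7.40, 8.76 and 7.65 in macrophages, 1.11, 1.26 and 1.20 in cDC2 and 0.874, 0.734 and 1.03 in migratory DCs. B cells had 0.282, 0.300 and 0.370 in the enriched fraction and 0.284, 0.305 and 0.289 in the depleted one. The ratio in monocytes, cDC1 and macrophages was thus above that in cDC2 and migratory DCs in each library, and B cells of both fractions lay below them all. Plasmacytoid DCs of the depleted fraction lay between, at 2.21, 1.53 and 1.21. Because part of the end of H2-DMb1 occurs in H2-DMb2, these ratios depend on how reads that match both were counted, which is not given in the sources used here.

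The chains of H2-DO, the inhibitor of H2-DM, also stood in unlike ratios from class to class. H2-Ob was highest in B cells, at 368, 342 and 350.1 CPM in the enriched fraction in the YUMMER1.7, YUMM1.7 and naive libraries and 378, 367 and 349.5 CPM in the depleted fraction, against 111, 112 and 118 CPM in cDC1 and 84.5, 90.98 and 88.4 CPM in cDC2. H2-Oa was at 164, 141 and 113 CPM in B cells, 167, 152 and 135 CPM in cDC2 and 103, 98.2 and 125 CPM in cDC1 of the enriched fraction, ranges that overlap in part. The H2-Oa to H2-Ob ratio was 0.926, 0.880 and 1.06 in cDC1 and 1.98, 1.67 and 1.53 in cDC2 in the YUMMER1.7, YUMM1.7 and naive libraries, against 0.447, 0.412 and 0.322 in B cells. Plasmacytoid DCs were at the other end: they had 151, 134 and 149.7 CPM of H2-Oa and 9.93, 25.9 and 17.6 CPM of H2-Ob, a ratio of 15.2 (95% interval 8.47 to 29.9), 5.18 (95% interval 3.65 to 7.54) and 8.50 (95% interval 5.55 to 13.6).

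Set against the summed UMIs of the 3 H2-DM genes, the summed H2-DO genes amounted to 0.684, 0.634 and 0.695 in B cells of the enriched fraction in the YUMMER1.7, YUMM1.7 and naive libraries, and 0.666, 0.644 and 0.634 in those of the depleted fraction. In cDC1 the same ratio was 0.212, 0.215 and 0.262 and in cDC2 0.218, 0.211 and 0.192. In monocytes it was 0.0236, 0.0203 and 0.0303 and in macrophages 0.0182, 0.0165 and 0.0173. Transcripts of the inhibitor were thus scarcer relative to those of H2-DM in monocytes and macrophages than in B cells or conventional DCs. Their H2-Ob level was 4.62, 5.59 and 8.76 CPM in monocytes and 4.85, 3.43 and 5.80 CPM in macrophages, and is set against the RNA of B cells below.

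**Figure D2:**
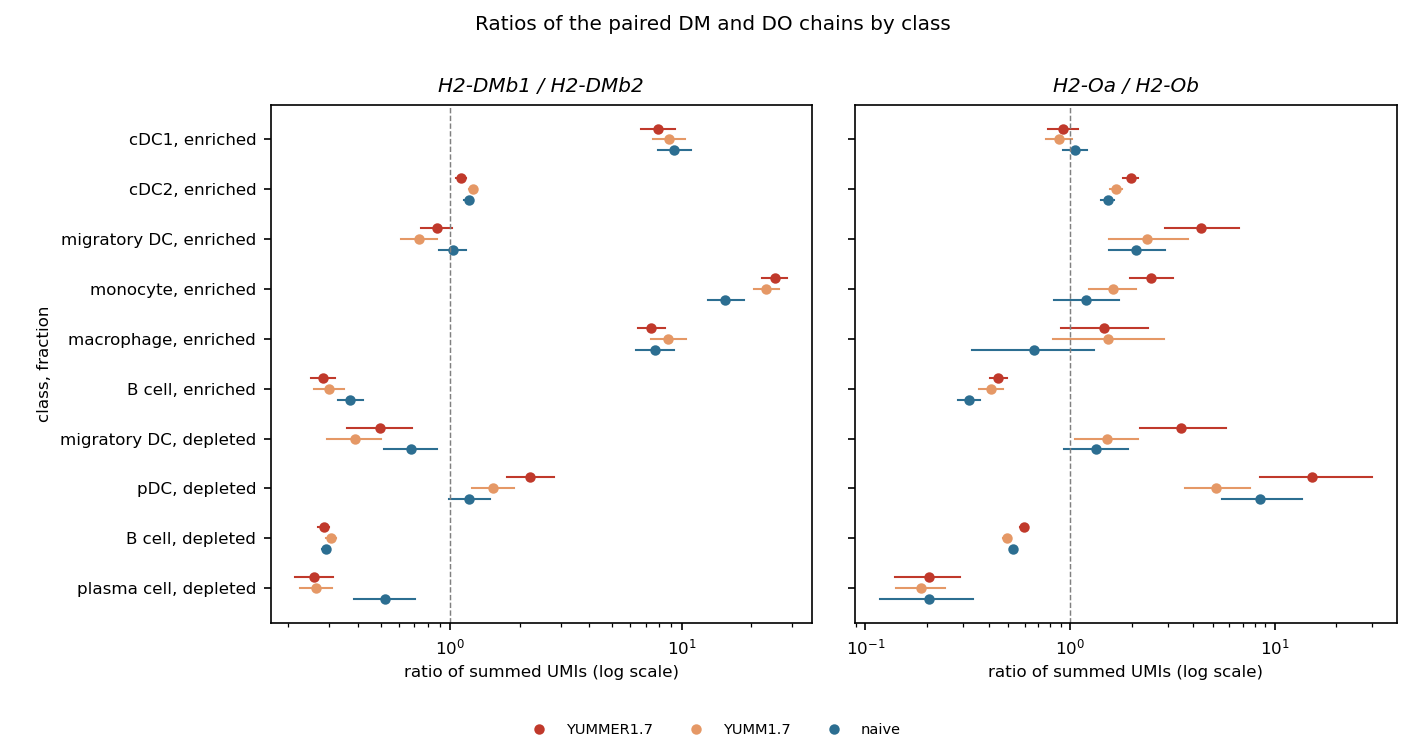
Ratios of summed UMIs between paired chains on a log axis, H2-DMb1 over H2-DMb2 on the left and H2-Oa over H2-Ob on the right, for 10 class and fraction units; each point is 1 library with its exact 95% interval for counting error, and the dashed line marks equal UMIs. H2-DMb1 over H2-DMb2 is 25.3 in monocytes and 0.282 in B cells of the enriched YUMMER1.7 library, and plasma cells of the depleted tumour libraries lie below B cells. H2-Oa over H2-Ob is lowest in plasma cells and highest in plasmacytoid DCs.

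Ciita, the transactivator, was at 407, 451 and 355 CPM in cDC2 and 414, 406 and 325 CPM in cDC1 in the YUMMER1.7, YUMM1.7 and naive libraries, ranges that overlap. B cells followed with 210.2, 217 and 235 CPM, monocytes with 148, 199 and 140.2 CPM and macrophages with 126, 107 and 106 CPM, each range below the one before. Migratory DCs had 36.4, 28.5 and 20.3 CPM. Neutrophils, which should lack it, had 8.64, 15.4 and 4.69 CPM and T cells 5.85, 4.38 and 5.62 CPM. A Ciita UMI was found in 93.4%, 93.3% and 89.9% of cDC2 in the YUMMER1.7, YUMM1.7 and naive libraries, at median depths of 13556, 13140 and 11803 UMIs, against 14.02%, 12.0% and 8.63% of migratory DCs at 11871, 11050.5 and 10278.5 UMIs and 1.46%, 3.20% and 2.66% of T cells at 7012, 6909 and 6491 UMIs. With every cell thinned to 2000 UMIs the shares were 53.4%, 54.8% and 49.0% in cDC2, 5.29%, 4.25% and 2.90% in migratory DCs and 0.249%, 0.920% and 0.925% in T cells, so the order held at equal depth.

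Migratory DCs were uneven in class II RNA from cell to cell. In single cells of the enriched fraction, Cd74 at the 10th percentile, median and 90th percentile was 154, 1249 and 6518 CPM in the YUMMER1.7 library, 183, 1049 and 7657 CPM in the YUMM1.7 library and 157, 1193 and 8549 CPM in the naive library. In cDC1 of the YUMMER1.7 library the same percentiles were 8356, 13657 and 19603 CPM. The upper cells among migratory DCs thus came near the lower cDC1 cells, while the lower cells had little Cd74. Monocytes were uneven as well: the same percentiles of H2-Aa were 0, 2063 and 10618 CPM in the YUMMER1.7 library, 0, 2732 and 11118 CPM in the YUMM1.7 library and 0, 1339 and 10162 CPM in the naive library. An H2-Aa UMI was found in 83.5%, 83.9% and 80.01% of migratory DCs and 85.95%, 87.9% and 77.7% of monocytes, but also in 42.0%, 55.8% and 41.9% of T cells, so detection of H2-Aa alone is no sign of expression. Monocytes had median depths of 12697.5, 10145 and 8632 UMIs in the YUMMER1.7, YUMM1.7 and naive libraries. Thinned to 2000 UMIs, the shares were 61.7%, 55.1% and 55.4% in migratory DCs, 69.8%, 71.7% and 64.4% in monocytes and 18.2%, 22.7% and 16.6% in T cells.

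How much of each level RNA from B cells would bring was computed from 6 genes of the B cell lineage, Cd79a, Cd79b, Ms4a1, Ighd, Ighm and Fcmr. Their summed level in a class as a share of that in B cells was multiplied by the level of a class II gene in B cells of the same library. This counts free RNA, but equally any B cell caught in a doublet or in the class, and expression of these 6 genes by the class itself. For H2-Aa it came to 0.846%, 0.728% and 0.693% of the observed level in cDC2 in the YUMMER1.7, YUMM1.7 and naive libraries, 1.09%, 1.26% and 1.82% in migratory DCs, 1.38%, 1.49% and 1.71% in monocytes and 3.77%, 5.27% and 4.20% in macrophages. In T cells it came to 91.8%, 70.2% and 51.5% and in neutrophils to 12.6%, 18.7% and 29.3%. The level of class II RNA in conventional DCs, monocytes and macrophages was therefore far above what B cell RNA would bring, while that of T cells was largely within it in the YUMMER1.7 library.

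The picture differed for H2-Ob, whose RNA is most abundant in B cells. B cell RNA would bring 7.201%, 6.90% and 7.88% of its level in cDC1 and 8.27%, 6.91% and 7.58% in cDC2 in the YUMMER1.7, YUMM1.7 and naive libraries, but 66.6%, 76.1% and 122% in migratory DCs, 131%, 138% and 94.0% in monocytes and 411%, 703% and 375% in macrophages. For H2-Oa the estimate was 125%, 189.6% and 181% in macrophages and 23.4%, 35.1% and 25.2% in monocytes, against 6.82%, 13.1% and 18.5% in migratory DCs. Without Ighm and Ighd in the index, the H2-Ob estimate was 23.4%, 40.7% and 53.9% in migratory DCs, 45.2%, 48.8% and 29.0% in monocytes and 102%, 150.4% and 109.7% in macrophages. With either index the H2-Ob of macrophages was no higher than this estimate, while the share in migratory DCs and monocytes turns on which B cell genes make up the index. In the depleted fraction, plasmacytoid DCs had 701, 781 and 746 CPM of Ighm in the YUMMER1.7, YUMM1.7 and naive libraries, and there the estimate of 16.1%, 18.95% and 16.4% for H2-Aa became 2.89%, 3.72% and 3.31% without Ighm and Ighd.

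**Figure D3:**
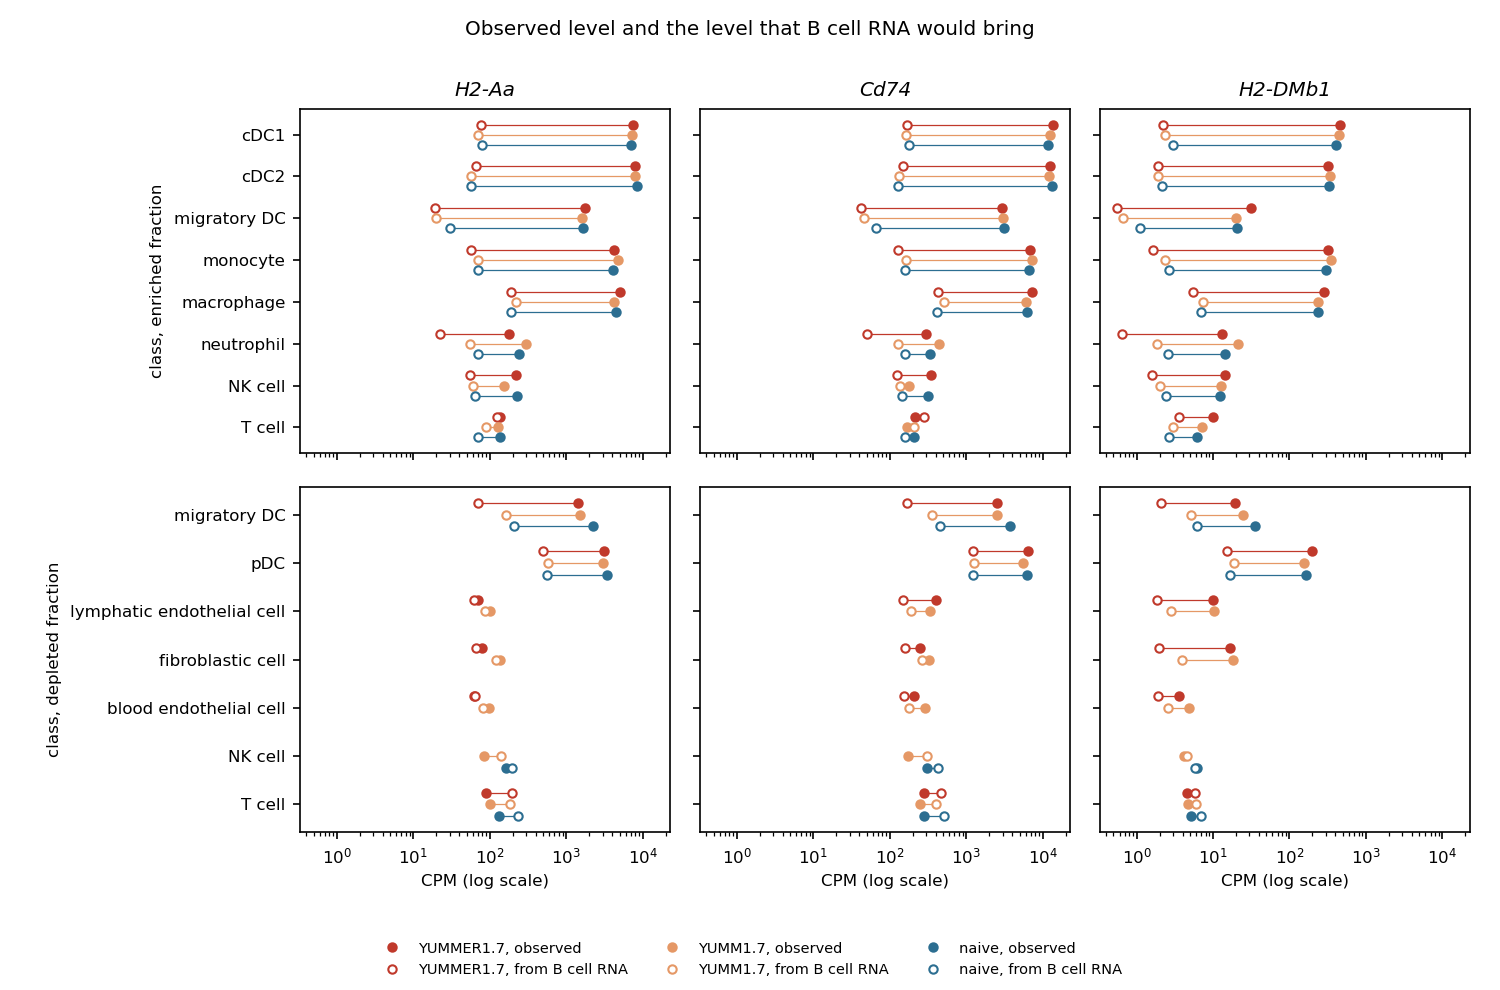
Observed level (filled points) and the level that RNA of B cells would bring (open points) for H2-Aa, Cd74 and H2-DMb1, in CPM on a log axis, by class in the enriched (top) and depleted (bottom) fraction, with 1 pair of points per library. The points of a pair lie far apart in DCs and myeloid cells, close together or reversed in T cells of the depleted fraction, and close together for H2-Aa in the stromal classes, where H2-DMb1 of fibroblastic and lymphatic endothelial cells and Cd74 of lymphatic endothelial cells stay apart.

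Between the arms, no class II gene passed the fold threshold in cDC1 or cDC2 taken as whole classes. In cDC1 none of the 10 genes passed 1.5-fold in any contrast, where 14.2% of all genes measured did so in YUMMER1.7 over naive, 8.95% in YUMM1.7 over naive and 5.98% in YUMMER1.7 over YUMM1.7. In cDC2 none passed either, where the shares of all genes were 19.4%, 12.5% and 7.19% in the same contrasts. With 10 genes, a share near these backgrounds would give only 1 or 2 calls, so the count of 0 is not particular to them. Ciita in cDC1 gave a log2 ratio of 0.35 (95% interval 0.23 to 0.47) for YUMMER1.7 over naive, and H2-DMb2 gave 0.40 (95% interval 0.07 to 0.72). In cDC2, H2-Aa gave -0.09 (95% interval -0.10 to -0.07) and Cd74 -0.10 (95% interval -0.11 to -0.09) in YUMMER1.7 over naive. The cDC2 class was made of 2 clusters, and cluster 10, led by Mmp12, Mgl2 and Dcstamp, held 13.8%, 12.1% and 36.02% of it in the YUMMER1.7, YUMM1.7 and naive libraries. Within cluster 10 both chains of H2-DO were lower in YUMMER1.7 over naive, 2 of 10 genes where 7.21% of all genes were. H2-Oa was there at 54.1, 64.8 and 81.8 CPM, a log2 ratio of -0.60, and H2-Ob at 19.5, 26.3 and 38.7 CPM, with -0.99.

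Migratory DCs of the enriched fraction differed between arms in the H2-DM genes, H2-Oa and Ciita rather than in the presenting chains, when the class was taken whole. In YUMMER1.7 over naive 5 of 10 genes were higher, where 7.74% of all genes were. Ciita was at 36.4, 28.5 and 20.3 CPM in the YUMMER1.7, YUMM1.7 and naive libraries, a log2 ratio of 0.84 (95% interval 0.64 to 1.05) for YUMMER1.7 over naive. H2-DMa gave 0.71 (95% interval 0.55 to 0.87), H2-DMb1 0.62 (95% interval 0.40 to 0.83), H2-DMb2 0.85 (95% interval 0.64 to 1.05) and H2-Oa 1.12 (95% interval 0.76 to 1.48). H2-Oa was at only 13.1, 6.91 and 6.04 CPM in the YUMMER1.7, YUMM1.7 and naive libraries. T cells of this fraction, which should lack it, had 10.04 to 12.5 CPM, so the H2-Oa calls of migratory DCs lie near the floor. The presenting chains and Cd74 lay between -0.09 and 0.16. The naive library was lowest for Ciita, H2-DMa, H2-DMb2 and H2-Oa, the YUMM1.7 library for H2-DMb1, and the YUMMER1.7 library was highest for all 5. The median over the 10 genes was a log2 of 0.39, against -0.07 over all genes. In YUMM1.7 over naive 0 of 10 were higher, where 4.58% of all genes were, and Ciita gave 0.49 (95% interval 0.28 to 0.70). In YUMMER1.7 over YUMM1.7, H2-DMb1 at 0.66 (95% interval 0.40 to 0.91) and H2-Oa at 0.93 (95% interval 0.50 to 1.36) were higher, 2 of 10 where 3.63% of all genes were.

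This class was made of 3 clusters whose shares moved with the arms. Cluster 4, led by Il12b, Tnfrsf4 and Cacnb3, held 68.3%, 50.1% and 21.0% of the migratory DCs in the YUMMER1.7, YUMM1.7 and naive libraries, cluster 18, led by Apol7c, Ccl17 and Ccl22, held 26.0%, 42.1% and 67.0%, and cluster 22, led by Sgcz and Cadm2, held 5.73%, 7.82% and 12.0%. Ciita was at 45.3, 47.0 and 46.1 CPM in cluster 4, 19.4, 12.3 and 15.04 CPM in cluster 18 and 2.20, 1.33 and 5.61 CPM in cluster 22. The rise of the whole class thus went along with a larger share of the cluster that has more Ciita. When the clusters were weighted equally, the log2 ratios of YUMMER1.7 over naive were 0.00 for Ciita, 0.07 for H2-DMa, 0.02 for H2-DMb1, -0.19 for H2-DMb2 and 0.15 for H2-Oa, and all 5 calls were lost. This alternative was chosen after the data were seen.

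Within cluster 4, of 560, 468 and 438 cells in the YUMMER1.7, YUMM1.7 and naive libraries, the presenting chains were lower in both tumour arms. H2-Aa was at 1998, 1936 and 3613 CPM in the YUMMER1.7, YUMM1.7 and naive libraries, a log2 ratio of -0.85 (95% interval -0.89 to -0.82) for YUMMER1.7 over naive and -0.90 (95% interval -0.94 to -0.86) for YUMM1.7 over naive. H2-Ab1 was at 688, 639 and 1108 CPM, with ratios of -0.69 and -0.80. H2-Eb1 was at 1827, 1708 and 3436 CPM (-0.91 and -1.01) and Cd74 at 3079, 3111 and 5105 CPM (-0.73 and -0.71). The 2 tumour libraries lay close to each other and the naive library apart for these 4 genes. Ciita did not follow: its ratios were -0.03 (95% interval -0.29 to 0.24) and 0.03 (95% interval -0.25 to 0.30). H2-DMa gave 0.01 and -0.19, and H2-DMb1 -0.24 and -0.81. In all, 4 of 9 genes were lower in YUMMER1.7 over naive, where 6.54% of all genes in the cluster were, and 5 of 9 in YUMM1.7 over naive, where 5.68% were. H2-Oa alone was higher in YUMMER1.7 over naive within the cluster, at 17.5, 10.5 and 10.8 CPM and a log2 ratio of 0.70, 1 of 9 where 7.97% of all genes were. In cluster 18, H2-Aa was at 1348, 1413 and 1259 CPM and Cd74 at 3075, 3274 and 2918 CPM in the YUMMER1.7, YUMM1.7 and naive libraries, with H2-Aa ratios of 0.10 and 0.17.

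Migratory DCs of the depleted fraction formed 1 cluster of 272, 299 and 306 cells in the YUMMER1.7, YUMM1.7 and naive libraries, and 6 of 10 genes were lower in YUMMER1.7 over naive, where 8.90% of all genes were. Its leading genes included Apol7c and Ccl22, which led enriched cluster 18, and Fscn1 and Cacnb3, which led enriched cluster 4. Whether the makeup inside this cluster differed between the arms was not tested. H2-Aa was at 1439, 1517 and 2255 CPM, a log2 ratio of -0.65 (95% interval -0.70 to -0.59). H2-Ab1 was at 385, 484 and 725 CPM, with -0.91 (95% interval -1.02 to -0.81), and H2-Eb1 at 1158, 1252 and 1886 CPM, with -0.70 (95% interval -0.76 to -0.64). The naive library was the highest for all 3 chains, and for Cd74 at 2569, 2575 and 3735 CPM, whose ratio of -0.54 stayed within 1.5-fold. Ciita was at 30.2, 45.3 and 68.2 CPM, with -1.18 (95% interval -1.55 to -0.81), and H2-DMb1 and H2-Ob gave -0.86 (95% interval -1.35 to -0.39) and -1.35 (95% interval -2.10 to -0.63). H2-Oa, at 27.2, 26.3 and 26.5 CPM, gave 0.04 (95% interval -0.43 to 0.51). In YUMM1.7 over naive 2 of 10 were lower, where 8.0% of all genes were: H2-Eb1 at -0.59 (95% interval -0.65 to -0.53) and Ciita at -0.59 (95% interval -0.91 to -0.27). In YUMMER1.7 over YUMM1.7 3 of 10 were lower, where 4.61% of all genes were: H2-DMb2 at -0.71, H2-Ob at -1.16 and Ciita at -0.59 (95% interval -0.98 to -0.20).

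B cell RNA moved with the arms in this class. The index was 1.79%, 4.30% and 5.34% of its level in B cells in the YUMMER1.7, YUMM1.7 and naive libraries, Cd79a was at 23.0, 52.6 and 60.1 CPM and Ms4a1 at 10.4, 28.8 and 41.0 CPM. With the estimated B cell RNA subtracted, the YUMMER1.7 over naive ratios were -0.58 for H2-Aa, -0.82 for H2-Ab1, -0.64 for H2-Eb1, -0.75 for H2-DMb1 and -1.12 for Ciita, so that H2-Aa came to lie just inside 1.5-fold and the others stayed past it. H2-Ob gave -0.15 after the subtraction. Against YUMM1.7 the subtracted ratio of Ciita was -0.42 and its call was lost.

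**Figure D4:**
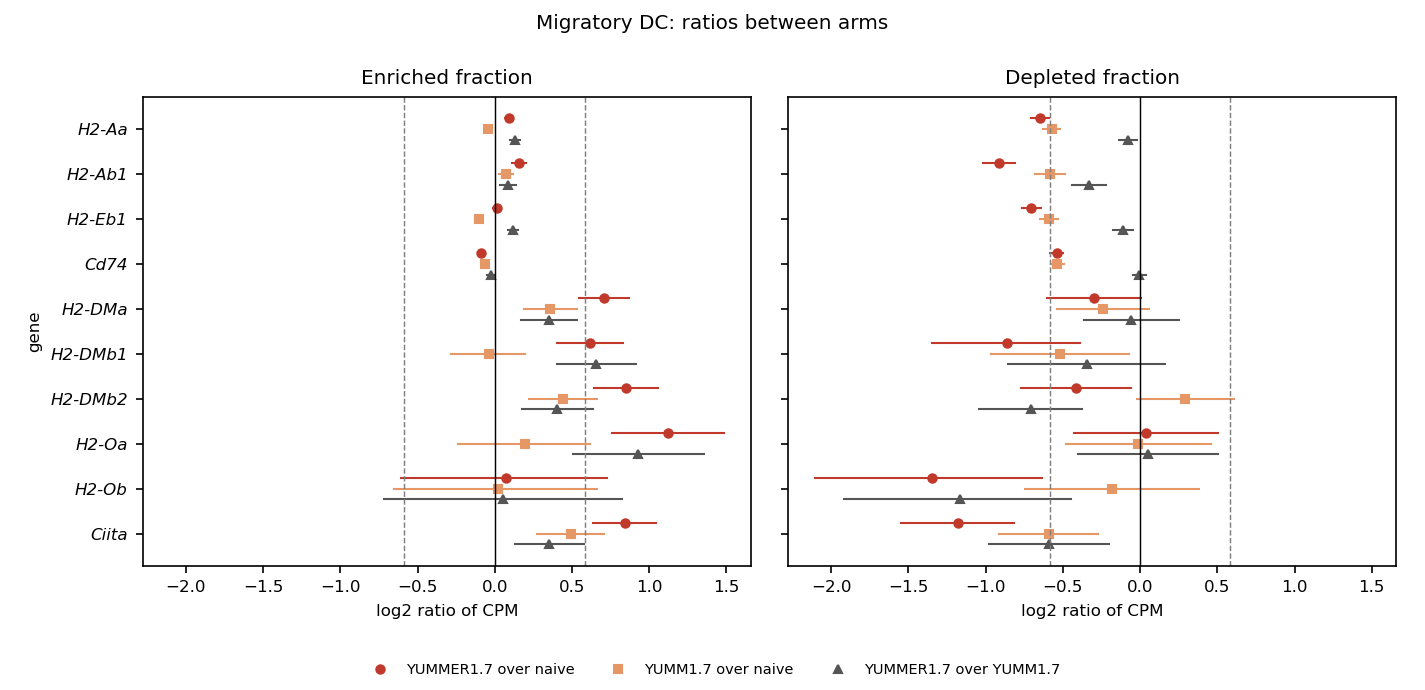
Log2 ratios of CPM of the 10 genes in migratory DCs of the enriched (left) and depleted (right) fraction, for YUMMER1.7 over naive, YUMM1.7 over naive and YUMMER1.7 over YUMM1.7; bars are exact 95% intervals for counting error and dashed lines mark 1.5-fold in either direction. In YUMMER1.7 over naive, Ciita lies at 0.84 in the enriched fraction and -1.18 in the depleted one, and the presenting chains lie near 0 on the left and between -0.91 and -0.65 on the right.

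Monocytes of the enriched fraction held 2 clusters with unlike class II levels. In cluster 13, led by Ly6i, Ace and Treml4, H2-Aa was at 5547, 6304 and 5932 CPM and Cd74 at 8947, 9612 and 9183 CPM in the YUMMER1.7, YUMM1.7 and naive libraries. H2-Ob alone was lower there in YUMMER1.7 over naive, 1 of 10 where 8.76% of all genes were. In cluster 14, led by Vcan, F13a1 and Chil3, genes known from classical monocytes, H2-Aa was at 482, 500.7 and 820.1 CPM, Cd74 at 1162, 1213 and 1806 CPM, H2-Eb1 at 366, 303 and 640.4 CPM and H2-Ab1 at 383, 358 and 550.1 CPM. In cluster 14 the naive library was highest for these 4 genes, with log2 ratios of YUMMER1.7 over naive of -0.77 (95% interval -0.85 to -0.68) for H2-Aa and -0.64 (95% interval -0.69 to -0.58) for Cd74, and of YUMM1.7 over naive of -0.71 and -0.57. In this cluster 4 of 8 genes with enough UMIs were lower in YUMMER1.7 over naive, where 9.80% of all genes were, and 4 of 8 in YUMM1.7 over naive, where 5.30% were. H2-Aa, H2-Eb1 and H2-DMb2 were among them in both contrasts, Cd74 in YUMMER1.7 over naive and H2-Ab1 in YUMM1.7 over naive. H2-DMa, at 179, 189 and 184 CPM, kept within 1.5-fold. Over the whole class 2 of 10 genes were lower in YUMMER1.7 over naive, where 8.83% of all genes were: H2-DMb2 at -0.61 (95% interval -0.92 to -0.30) and H2-Ob at -0.92 (95% interval -1.40 to -0.43). In YUMM1.7 over naive H2-Ob alone was lower, 1 of 10 where 5.36% of all genes were. How much of the H2-Ob of monocytes B cell RNA would bring turned on the index, as given above. Ciita in the whole class gave 0.51 (95% interval 0.40 to 0.61) in YUMM1.7 over naive and 0.08 in YUMMER1.7 over naive.

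Macrophages also held 2 clusters. In cluster 15, led by C1qa and Mertk, H2-Aa was at 6655, 6411 and 5302 CPM, Cd74 at 9408, 9026 and 7217 CPM and Ciita at 171, 167 and 130.1 CPM in the YUMMER1.7, YUMM1.7 and naive libraries. In cluster 6, led by Cd5l, Marco and Timd4, markers of sinus-lining macrophages, the same genes were at 1393, 1146 and 1754 CPM, 2466, 1957 and 3082 CPM and 26.5, 27.2 and 29.4 CPM. The naive library was lowest for H2-Aa and Cd74 in cluster 15 and highest in cluster 6; YUMMER1.7 over naive ratios of H2-Aa were 0.33 (95% interval 0.30 to 0.36) in cluster 15 and -0.33 (95% interval -0.42 to -0.24) in cluster 6, both within 1.5-fold, and the difference between the clusters was not tested. In YUMM1.7 over naive 3 of 7 genes with enough UMIs were lower in cluster 6, where 15.1% of all genes were: H2-Aa at -0.61, Cd74 at -0.66 and H2-Eb1 at -0.59. Over the whole class H2-Oa alone was higher in YUMMER1.7 over naive, at 0.88 (95% interval 0.03 to 1.80), 1 of 10 where 4.84% of all genes were. Its level of 7.12, 5.24 and 3.87 CPM is within what B cell RNA would bring by the index with Ighm and Ighd. Leaving them out lowers the estimate of every gene of a class alike, as for H2-Ob of macrophages above, so this statement turns on the index.

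**Figure D5:**
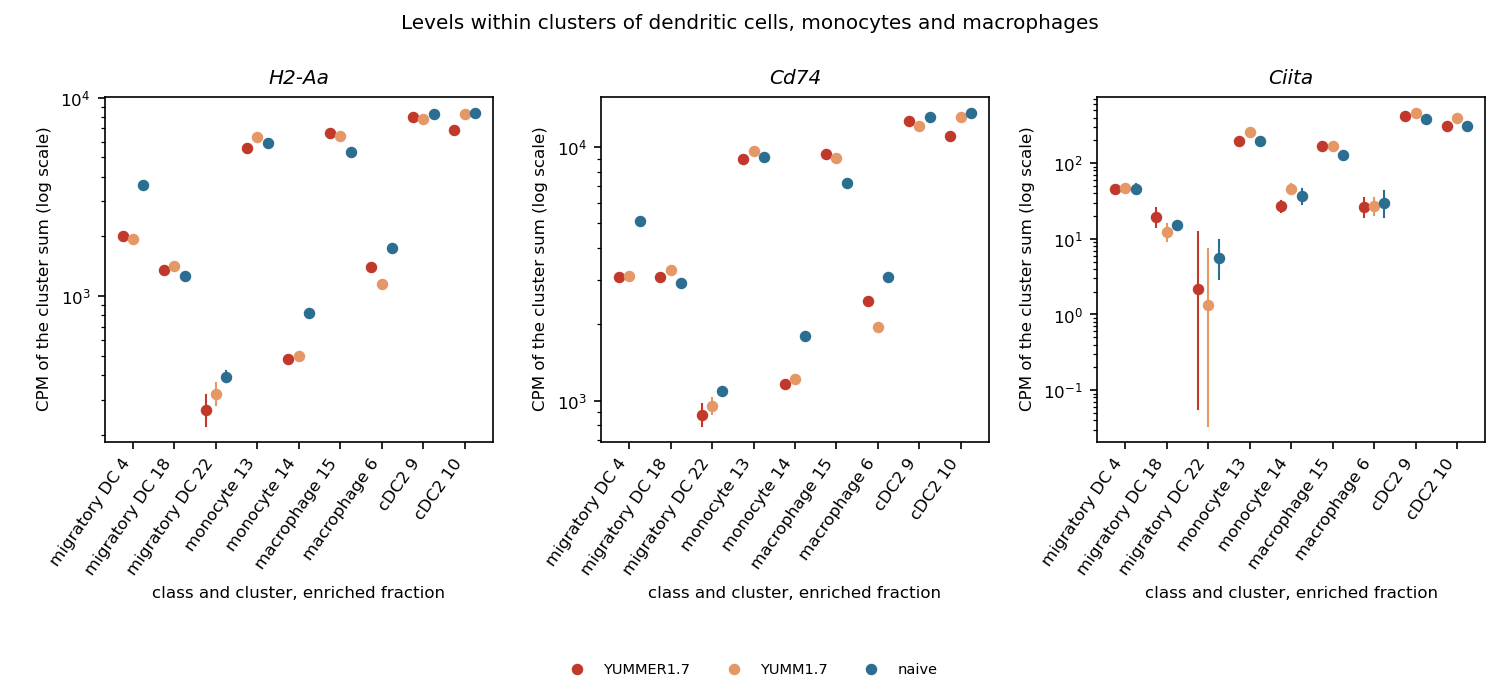
Level of H2-Aa, Cd74 and Ciita (CPM of the cluster sum, log axis) in clusters of migratory DCs, monocytes, macrophages and cDC2 of the enriched fraction, with 1 point per library and exact 95% Poisson intervals. H2-Aa and Cd74 are higher in the naive library than in both tumour libraries in migratory DC cluster 4 and monocyte cluster 14, Ciita is level across the libraries in cluster 4, and clusters of 1 class lie far apart.

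B cells had no class II gene past the fold threshold in either fraction. None of the 10 genes passed 1.5-fold in B cells of the enriched fraction, where 11.9%, 10.9% and 5.97% of all genes did in YUMMER1.7 over naive, YUMM1.7 over naive and YUMMER1.7 over YUMM1.7. None passed in B cells of the depleted fraction, where the shares were 8.47%, 6.68% and 5.23%. In the depleted fraction H2-Aa was at 3920.0, 3763 and 3911 CPM, Cd74 at 9437, 8306 and 8511 CPM and Ciita at 244, 250.1 and 225 CPM in the YUMMER1.7, YUMM1.7 and naive libraries, in 2543, 4591 and 8124 cells. Cluster 0, led by Fcmr and Fcer2a, held 57.2%, 38.1% and 1.94% of these B cells, so the arms differed in cluster makeup while their class II levels lay close together. In the enriched fraction H2-Ab1 gave 0.27 (95% interval 0.22 to 0.32) and H2-Oa 0.54 (95% interval 0.35 to 0.74) in YUMMER1.7 over naive.

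Plasma cells, the antibody-secreting end of the B lineage, are known to silence Ciita. They had 4.84, 5.56 and 11.1 CPM of Ciita in the YUMMER1.7, YUMM1.7 and naive libraries, against 244, 250.1 and 225 CPM in B cells of the same libraries. H2-Aa was at 336, 326 and 291 CPM and H2-Ab1 at 525, 444 and 347 CPM, below B cells at 3920.0, 3763 and 3911 CPM and 2895, 2478 and 2530.3 CPM, and Cd74 was at 1876, 1632 and 1963 CPM. The H2-Ab1 to H2-Aa ratio was 1.56, 1.36 and 1.19, above that of B cells, migratory DCs and plasmacytoid DCs of these libraries. Ciita was lower in YUMMER1.7 over naive, at -1.20 (95% interval -1.77 to -0.62), 1 of 10 where 6.98% of all genes were, while H2-Ab1 at 0.60 (95% interval 0.51 to 0.68) and H2-DMb2 at 0.62 (95% interval 0.35 to 0.90) were higher, 2 of 10 where 14.9% of all genes were, a share near this background. Both higher calls were lost with TMM factors, at 0.55 for H2-Ab1 and 0.57 for H2-DMb2, and without immunoglobulin, mitochondrial and ribosomal genes in the class sum, at 0.51 and 0.53. With the 2 plasma cell clusters weighted equally, H2-Ab1 gave 0.33 and H2-DMb2 0.16; cluster 11, led by Creld2 and Mzb1, held 54.6%, 52.0% and 27.6% of the class. In YUMM1.7 over naive H2-DMb1 at -0.60 (95% interval -0.998 to -0.18) and Ciita at -0.999 (95% interval -1.50 to -0.48) were lower, 2 of 10 where 5.78% of all genes were. T cells of the depleted fraction, which should lack Ciita, had 4.27 to 7.67 CPM of it. Both Ciita calls in plasma cells thus set a tumour library at that floor against the naive library. By the index, B cell RNA would bring 491%, 292% and 778% of the H2-Aa of this class, but plasma cells express immunoglobulin genes of the index themselves, with 2186, 1031 and 2951 CPM of Ighm in the YUMMER1.7, YUMM1.7 and naive libraries, and no estimate was drawn for them.

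Plasmacytoid DCs, the interferon-producing DC lineage, had 3128, 3033 and 3444 CPM of H2-Aa, 6362, 5629 and 6218 CPM of Cd74 and 73.6, 89.9 and 92.5 CPM of Ciita in the YUMMER1.7, YUMM1.7 and naive libraries. Their H2-Eb1 to H2-Aa ratio was 0.544, 0.501 and 0.509, against 0.796, 0.801 and 0.809 in B cells of the same fraction, and was the lowest of the antigen-presenting classes in each depleted library. H2-DMb2, at 88.5, 102 and 136 CPM, was lower in YUMMER1.7 over naive with a log2 ratio of -0.62 (95% interval -0.97 to -0.27), 1 of 9 genes with enough UMIs where 8.75% of all genes were. H2-Ob was lower in YUMMER1.7 over YUMM1.7, at -1.38 (95% interval -2.45 to -0.41), 1 of 10 where 4.78% of all genes were. Without doublet removal this H2-Ob ratio was -0.32. By the index with Ighm and Ighd, B cell RNA would bring 489.9%, 217% and 286% of the H2-Ob level. In these cells the estimate falls steeply without Ighm and Ighd, as given above for H2-Aa, so the share for H2-Ob turns on the index.

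Stromal cells could be compared only between the tumour arms, since 8 fibroblastic, 21 lymphatic endothelial and 10 blood endothelial cells were kept from the naive depleted library. Fibroblastic cells had 79.4 and 135 CPM of H2-Aa, 247 and 326 CPM of Cd74 and 5.07 and 10.7 CPM of Ciita in the YUMMER1.7 and YUMM1.7 libraries. T cells of the same libraries had 88.7 and 101 CPM, 285 and 247 CPM and 6.31 and 4.27 CPM of these genes. B cell RNA would bring 84.0% and 88.9% of the H2-Aa, 65.0% and 81.4% of the Cd74 and 82.0% and 74.8% of the Ciita of fibroblastic cells. Their H2-Aa, Cd74 and Ciita were thus near what B cell RNA would bring by this index. In T cells of the same libraries the index gave more H2-Aa than was observed, as given below, so it can overstate B cell RNA. Whether part of these levels is the cells' own can therefore not be told. For H2-Ab1, at 99.99 and 102 CPM, it would bring 49.3% and 77.6%. An H2-Aa UMI was found in 42.0% and 48.6% of fibroblastic cells at median depths of 21024 and 14575.5 UMIs, and in 32.8% and 34.8% of T cells at 10643 and 5746.5 UMIs; thinned to 2000 UMIs the shares were 7.86% and 15.4% of fibroblastic cells, against 9.51% and 13.9% of T cells. H2-DMb1 lay further above it: at 16.6 and 18.4 CPM, 12.0% and 21.1% of it would come from B cells, and its ratio to H2-DMb2 was 2.04 (95% interval 1.55 to 2.70) and 1.53 (95% interval 1.07 to 2.20), against 0.284 and 0.305 in B cells.

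In fibroblastic cells 6 of 10 genes were lower in YUMMER1.7 over YUMM1.7, where 8.73% of all genes were. H2-Aa gave a log2 ratio of -0.77 (95% interval -0.92 to -0.61), H2-Eb1 -0.67 (95% interval -0.82 to -0.51), H2-DMa -0.73 (95% interval -1.16 to -0.29), H2-Oa -1.19, H2-Ob -1.29 and Ciita -1.08 (95% interval -1.68 to -0.47). H2-Ab1 gave -0.03 (95% interval -0.19 to 0.14) and H2-DMb1 -0.14 (95% interval -0.54 to 0.26). The B cell index moved the same way, at 1.701% and 3.19% of its level in B cells in the YUMMER1.7 and YUMM1.7 libraries. With B cell RNA subtracted, H2-Aa gave -0.24, H2-Eb1 -0.21, H2-DMa -0.73 and Ciita -1.56, so the calls of the 2 presenting chains were lost. The subtracted ratio of Ciita compares small remainders, since the estimate covers most of its low level. B cell RNA would bring 132% and 87.2% of the H2-Oa and 117% and 87.5% of the H2-Ob of these cells. Most of these cells were in cluster 20, led by Cxcl13 and Ccl19, chemokines of the follicle and T cell zone, with 85.4 and 164 CPM of H2-Aa, against 55.1 and 65.4 CPM in cluster 8, led by Mgp, Mfap5 and Col3a1.

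Lymphatic endothelial cells differed in Cd74 between their 2 clusters. The whole class had 399.9 and 335 CPM of Cd74 in the YUMMER1.7 and YUMM1.7 libraries, of which B cell RNA would bring 37.2% and 57.6%, while for H2-Aa, at 69.6 and 102 CPM, it would bring 88.8% and 85.2%. The Cd74 to H2-Aa ratio was 5.75 (95% interval 5.15 to 6.42) and 3.27 (95% interval 2.93 to 3.66), against 2.41 and 2.21 in B cells and 3.22 and 2.44 in T cells of the same libraries. Within the depleted fraction, Cd74 was at 676 and 537 CPM in lymphatic endothelial cluster 22, led by Ccl20 and Cxcl9, with a log2 ratio of YUMMER1.7 over YUMM1.7 of 0.33 (95% interval 0.21 to 0.46), and at 145 and 219 CPM in lymphatic endothelial cluster 15, led by Mmrn1 and Stab2, which held 60.7% and 68.7% of the class, with -0.60 (95% interval -0.79 to -0.41). H2-DMb1 was at 9.87 and 10.3 CPM, of which 18.8% and 27.4% would come from B cells. Ciita, at 4.38 and 7.35 CPM, was the only gene of 9 with enough UMIs past 1.5-fold, at -0.74 (95% interval -1.58 to 0.08), where 4.36% of all genes were lower, and its counting interval includes 0. In blood endothelial cells 2 of the 4 genes with enough UMIs were lower in YUMMER1.7 over YUMM1.7, H2-Aa at -0.65 (95% interval -0.96 to -0.34) and H2-Ab1 at -0.75 (95% interval -1.09 to -0.41), where 6.93% of all genes were. B cell RNA would bring 103% and 83.4% of their H2-Aa, and without doublet removal the ratios were -0.06 for H2-Aa and -0.08 for H2-Ab1.

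T cells, NK cells and neutrophils, which are known to lack class II expression in mice at rest, moved between the arms at levels far below those of the antigen-presenting classes. In neutrophils taken whole, 4 of 7 genes with enough UMIs were lower in YUMMER1.7 over YUMM1.7, where 14.5% of all genes were. They were H2-Aa, with a log2 ratio of -0.72, H2-Eb1, H2-DMb1 and Ciita. Within neutrophil cluster 3, led by Acod1 and Hdc, 0 of 6 genes with enough UMIs were lower in this contrast. This cluster held 82.02% and 93.5% of the class in the YUMMER1.7 and YUMM1.7 libraries, with 262 and 257 CPM of H2-Aa. Cluster 20, led by Camp and Ngp, held 17.98% and 6.49%, with 68.2 and 439.9 CPM of H2-Aa. Its 27 cells in the YUMM1.7 library were below the minimum of 50 cells. In NK cells of the enriched fraction Cd74 was at 353, 178 and 322 CPM in the YUMMER1.7, YUMM1.7 and naive libraries: 3 of 5 genes (H2-Ab1, H2-Eb1 and Cd74) were higher in YUMMER1.7 over YUMM1.7, where 2.87% of all genes were, and 2 of 6 (H2-Eb1 and Cd74) were lower in YUMM1.7 over naive, where 4.51% were. B cell RNA would bring 35.6%, 78.2% and 44.6% of this Cd74. The YUMM1.7 library was thus the lowest for Cd74 in the class sum of NK cells, and its level there was the nearest to the estimate. In single NK cells the median and 90th percentile of Cd74 were 0 and 335 CPM in the YUMMER1.7 library. They were 122 and 555 CPM in the YUMM1.7 library and 86.04 and 579 CPM in the naive library. The higher Cd74 sum in YUMMER1.7 over YUMM1.7 was therefore not seen at the median or 90th percentile of single cells.

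In T cells of the enriched fraction H2-DMb1 alone was higher in YUMMER1.7 over naive, 1 of 10 where 8.89% of all genes were, and H2-DMb2 alone was lower in YUMM1.7 over naive, 1 of 10 where 7.08% were. In T cells of the depleted fraction 5 of 10 genes (H2-Aa, H2-Eb1, H2-DMb2, H2-Oa and H2-Ob) were lower in YUMMER1.7 over naive, where 24.2% of all genes were, Ciita alone in YUMM1.7 over naive, 1 of 10 where 3.47% were, and H2-Oa and H2-Ob in YUMMER1.7 over YUMM1.7, 2 of 10 where 16.6% were. The makeup of this class differed between the arms. Its cluster 10, with a median of 22556 UMIs per cell, held 42.4%, 8.42% and 6.79% of it in the YUMMER1.7, YUMM1.7 and naive libraries. In NK cells of the depleted fraction, the 4 genes with enough UMIs (H2-Aa, H2-Ab1, H2-Eb1 and Cd74) were all lower in YUMM1.7 over naive, where 12.1% of all genes were. By the index, B cell RNA would bring 219%, 182% and 177% of the H2-Aa of these T cells in the YUMMER1.7, YUMM1.7 and naive libraries and 168% and 119% of that of these NK cells in the YUMM1.7 and naive libraries, more than was observed.

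Genes that act with class II were followed as 3 lists, chosen with earlier results of these data known: processing and turnover (9 genes in the enriched fraction), promoter factors (7) and regulators of Ciita (11). Of the promoter factors, which hold the RFX, NF-Y and CREB subunits, 0 of 6 measured genes passed 1.5-fold in cDC1 and 0 of 7 in cDC2 in YUMMER1.7 over naive, and 0 of 7 in migratory DCs of either fraction, where 19.1% of all genes did so in the enriched fraction and 15.6% in the depleted one. In the processing list Cd83, which shields surface class II from the ligase March1, was lower in YUMMER1.7 over naive in cDC1, cDC2, monocytes and macrophages. Cd83 was at 380.4, 528 and 726 CPM in cDC1 in the YUMMER1.7, YUMM1.7 and naive libraries, with a log2 ratio of -0.93 (95% interval -1.04 to -0.83), at 425, 644 and 904 CPM in cDC2, with -1.09 (95% interval -1.14 to -1.04), and at 122, 225 and 336 CPM in monocytes, with -1.46 (95% interval -1.54 to -1.38). YUMM1.7 lay between the other libraries in each of these classes. March1, the ubiquitin ligase that removes class II from the surface, was at 457, 479.6 and 379 CPM in cDC1 and 391, 428 and 508 CPM in B cells, against 2.91, 3.64 and 4.88 CPM in migratory DCs. March1 was lower in migratory DCs in YUMMER1.7 over naive, at -0.75 (95% interval -1.40 to -0.15) in the enriched fraction and -0.98 (95% interval -1.61 to -0.37) in the depleted one. B cells carried far more March1, and the B cell index of depleted migratory DCs was lowest in the YUMMER1.7 library, as given above. How much of the March1 of migratory DCs B cell RNA would bring was not computed.

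Ctsl, a protease that degrades the invariant chain, Lgmn, an endopeptidase of lysosomes, and Ifi30, the lysosomal thiol reductase, were higher in more than 1 class. Ctsl was at 78.4, 28.02 and 19.2 CPM in cDC2 in the YUMMER1.7, YUMM1.7 and naive libraries, with 2.03 (95% interval 1.83 to 2.24) for YUMMER1.7 over naive, and Ifi30 at 509, 491 and 325 CPM in cDC1, with 0.65 (95% interval 0.53 to 0.76). In YUMMER1.7 over naive the list had 2 higher (Lgmn and Ifi30) and 1 lower (Cd83) of 8 measured genes in cDC1, and 2 higher (Ctsl and Lgmn) and 1 lower (Cd83) of 9 in cDC2, against the shares of all genes given above for these classes. In monocytes it had 2 higher (Ctsl and Ifi30) and 1 lower of 9, where 14.8% of all genes passed, and in macrophages 3 higher (Ctsl, Ifi30 and H2-Eb2) and 1 lower of 9, where 14.2% did. Of the regulators of Ciita, Irf8 and Irf4 were higher and Pax5 and Prdm1 lower in migratory DCs of the enriched fraction in YUMMER1.7 over naive. Pax5 is among the B cell markers used here, and how much of it B cell RNA would bring was not computed. Irf8, a factor of the DC lineage, was at 579.8, 400.1 and 226 CPM there in the YUMMER1.7, YUMM1.7 and naive libraries, with 1.36 (95% interval 1.30 to 1.41), and at 298, 312 and 194 CPM in the depleted fraction, with 0.62 (95% interval 0.47 to 0.78). Irf8 was thus higher in both fractions, while Ciita was higher in the enriched and lower in the depleted fraction. These are ratios of whole classes. The regulators were not followed within the clusters of enriched migratory DCs, whose shares moved with the arms.

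The genes outside the list whose levels ran most like those of Cd74 were found by Pearson correlation of log2(CPM + 10) over class and library units of at least 50 cells, 27 in the enriched fraction and 25 in the depleted one, among genes that reach 50 CPM. The units share libraries and classes, so the values are descriptions. For Cd74 they were Plekho1 (0.974), Cd86 (0.958), Cnpy3 (0.956), Erp29 (0.945) and Fgd2 (0.943) in the enriched fraction, and Fgd2 (0.945), Irf5 (0.933), Sp140 (0.927), Ly86 (0.920) and Siglecg (0.915) in the depleted fraction. For Ciita they were Gm20513 (0.953), Gdi2 (0.946), Plekho1 (0.940), Gm6377 (0.936) and Cnpy3 (0.924), and Siglecg (0.953), March1 (0.941), Ly86 (0.938), Pkib (0.935) and Chst3 (0.920). Gm20513 is the transcript antisense to H2-Eb1 and may share its reads. Among the members, the correlation with Cd74 in the enriched fraction was 0.996 for H2-Aa, 0.994 for H2-Eb1, 0.982 for H2-Ab1, 0.951 for Ciita, 0.936 for H2-DMa and 0.912 for H2-DMb1, 0.742 for H2-DMb2, 0.650 for H2-Oa and 0.577 for H2-Ob. In the depleted fraction it was 0.982 for H2-Ab1, 0.976 for H2-Eb1, 0.968 for H2-Aa, 0.938 for H2-DMb2, 0.928 for H2-DMa, 0.885 for Ciita, 0.883 for H2-DMb1, 0.806 for H2-Oa and 0.637 for H2-Ob. The presenting chains thus ran closest to Cd74 among the members in both fractions and the H2-DO chains least, while H2-DMb2 followed Cd74 closely in the depleted fraction alone. The depleted units hold no cDC1, cDC2, monocyte or macrophage class, so correlations of the fractions are over unlike sets of classes.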

How the data were processed

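The deposited values are raw UMI counts per gene and cell barcode, written by the authors as a sparse matrix for each of the 6 libraries, with 1 library per arm and fraction. Libraries were made with the Chromium GEM-X Single Cell 3′ chemistry, per the labels' protocols, and Cell Ranger 8.0.1 and mm10 are named in the submitters' processing notes. Per the file headers, enriched matrices were written by version 8.0.1 and depleted ones by 7.0.0, so fractions were kept apart. How reads matching several genes were treated is not given in the sources used here.

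From these counts, cells with 500 or more UMIs, 300 or more genes and no more than 10% mitochondrial UMIs were retained (scanpy 1.11.5, Python 3.11.15). Cells above the 95th percentile of the Scrublet score of a library were removed as likely doublets, 4.53% to 4.92% per library, because the automatic threshold marked only 0% to 3.00%. Clustering used 2000 variable genes without the 10 members, 30 principal components, 15 neighbours and Leiden resolution 1 (leidenalg 0.10.2), giving 27 enriched and 24 depleted clusters. Each was named from marker lists of 19 classes when 3 or more markers, each in 10% or more of its cells, lay above the other cells by a log2 fold over 0.5; a cluster whose leading genes went against the name, or which was shallow, stayed unnamed. UMIs were summed per class and library, with exact Poisson intervals for levels, Clopper-Pearson intervals for shares and conditional binomial intervals for ratios, all at 95% and for counting error only. PCR duplicates are collapsed by the UMIs. Depths per library are given with the results. The ratio step was tested on simulated counts with known changes. No test or p-value was computed, since each group has 1 library.

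Not every gene of the list of Ciita regulators is reported here. All 10 members were measured in each class, and the plot of levels shows them all; other genes were named by the lists and by the likeness rule. The members, lists and rules were chosen with earlier results of these data known. Alternatives covered the cell filter, doublets, thinning to 2000 UMIs, the weight of cells, scaling, B cell RNA, the genes and resolution of clustering, the count minimum and the fold; equal weight for the clusters of a class was added after the data were seen.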

Additional observations from a re-analysis of the deposited data

Results flagged for a closer look

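Ciita in migratory DCs moved in opposite directions in the 2 fractions for the same contrast. Its log2 ratio of YUMMER1.7 over naive was 0.84 in the enriched fraction and -1.18 in the depleted fraction. H2-DMb1 did likewise, with 0.62 in the enriched fraction and -0.86 in the depleted one. Both were picked out because the ratio passed 1.5-fold in opposite directions in the 2 fractions, and the difference between fractions was not tested. The fractions differ in how cells were selected, in their feature lists and in the clusters that make up the class. In the enriched fraction the ratios were 0.00 for Ciita and 0.02 for H2-DMb1 when its clusters were weighted equally. The depleted class was a single cluster, so no such weighting could be made there. A shift in makeup inside that cluster was not tested.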

How the results depend on the processing

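No paired analysis was possible because each arm has 1 library per fraction and the results come from no test. Leaving out a library would leave an arm with none. The count of class II genes past 1.5-fold, summed over the antigen-presenting, plasma cell and stromal classes and leaving out T cells, NK cells, neutrophils and mast cells or basophils, was recomputed under each alternative, and the causes of the changes below were not tested.

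With cells thinned to 2000 UMIs, which leaves fewer UMIs per gene, the counts in the enriched fraction were 5 for YUMMER1.7 over naive (8 as reported), 3 for YUMM1.7 over naive (1 as reported) and 0 for YUMMER1.7 over YUMM1.7 (2 as reported). In the depleted fraction they were 3 (10 as reported), 2 (4 as reported) and 5 (13 as reported) for the same contrasts. At 2-fold they were 1, 0 and 0 in the enriched and 3, 0 and 5 in the depleted fraction. With the clusters of a class weighted equally, an alternative added after the data were seen, they were 4 (1 higher, 3 lower) and 4 (all lower) for YUMMER1.7 and YUMM1.7 over naive in the enriched fraction. There, YUMM1.7 over naive gave 0 with the stricter cell filter, 3 with B cell RNA subtracted and 2 with a minimum of 10 UMIs, and YUMMER1.7 over YUMM1.7 gave 4 without doublet removal, 4 with the mean over cells and 4 with B cell RNA subtracted. In the depleted fraction YUMM1.7 over naive gave 2 with the stricter cell filter, 1 without doublet removal, 2 with the mean over cells, 2 with TMM factors and 8 with B cell RNA subtracted. The other settings kept each count within 1.5 times.

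Among single genes called in a class, 2 ratios changed sign: H2-DMb2 in enriched migratory DCs, YUMMER1.7 over naive, was -0.19 with clusters weighted equally, and H2-Ob in monocytes, YUMM1.7 over naive, was 0.12 at Leiden resolution 2. Genes near the minimum of 50 UMIs have wide counting intervals, and 1 library per arm gives no measure of the spread between mice.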

Other observations

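Several clusters that no marker list named also carried class II RNA. In the depleted fraction, a cluster led by Rgs13 and Mybl1 had 1625, 1508 and 1837 CPM of H2-Aa, 4753, 3883 and 4797 CPM of Cd74 and 119, 123 and 156 CPM of H2-Ob in the YUMMER1.7, YUMM1.7 and naive libraries. B cells of the same fraction had 3920.0, 3763 and 3911 CPM of H2-Aa, 9437, 8306 and 8511 CPM of Cd74 and 378, 367 and 349.5 CPM of H2-Ob, above the cluster in each library. A second depleted cluster, led by Lyz2, S100a8 and Prtn3, held 105, 183 and 140 cells. It had 1119, 2635 and 4765 CPM of H2-Aa, 2186, 4970.1 and 8021 CPM of Cd74 and 81.9, 158 and 202 CPM of Ciita, with the naive library highest and the YUMMER1.7 library lowest for all 3 genes.

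In the enriched fraction, a cluster led by genes of the cell cycle had 7989.7, 8842 and 10164 CPM of Cd74 in the YUMMER1.7, YUMM1.7 and naive libraries. A cluster with Il22, the gene of a cytokine made by innate lymphoid cells, among its leading genes had 948, 469.9 and 592 CPM of Cd74 over 39, 80 and 248 cells, above T cells of the same fraction at 213, 169 and 211 CPM.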
